A study of Arabidopsis thaliana with 36 samples.

Results

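Roots of the Arabidopsis thaliana ecotype Tsu (the natural inbred line Tsu-1) were compared after 48 h without iron and after 24 h on complete medium. The sample titles chose the members: the 3 root arrays of Tsu at 48 h without iron and the 3 root arrays of Tsu on complete medium, 6 of 36 arrays in all. No other genotype or transgene is named in the labels. Plants of both groups were 24 d old at transfer and grown hydroponically on rockwool with 16 h of light a day at 150 µmol. The first group received medium without iron, and the second 50 µM iron as Fe(III)-EDDHA. Plants with iron were sampled only at 24 h, so lack of iron cannot be told apart from the extra 24 h of growth. The whole study also held the ecotype Kas, shoots, and a 24 h time without iron, in 12 groups of 3 arrays.

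Roots short of iron switch on a set of genes for iron acquisition. In Arabidopsis, basic helix-loop-helix (bHLH) transcription factors of subgroup Ib, such as BHLH101, work with the regulator FIT, while small IRON MAN peptides promote the response and the E3 ligases BTS and BTS-like restrain it. Roots then secrete coumarins, phenolic compounds that reduce and mobilise ferric iron, and adjust transporters of iron, manganese and zinc.

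The values were log2 expression values, 1 per probe set, so a difference of 1 is a doubling. Marker genes followed the titles: PYK10, EXPA7 and EXPA18, which mark roots, averaged at least 7.60 on every roots array and at most 4.68 on every shoots array. The mean of 8 photosystem probe sets was 3.84 to 3.97 in Tsu roots without iron at 48 h and 4.04 to 4.25 in Tsu roots with iron, against 11.1 to 11.5 in shoots. Several arrays stood apart. An ecotype index, 0 at the level of Tsu shoots and 1 at that of Kas shoots over 117 probe sets, was 0.24, 0.45 and 0.24 in Tsu roots at 48 h without iron and 0.47, 0.38 and 0.64 with iron (replicates 1 to 3). It was 0.69 to 0.98 in Kas roots, and 0.63 to 0.74 in Tsu roots at 24 h without iron, which overlaps Kas roots. The 24 h arrays are thus called Tsu by their label alone. Over all probe sets, complete-medium replicates 1 and 3 correlated best with a Kas root array. Complete-medium replicate 2 had the lowest median of the arrays, 4.91, and the highest reading of the bioB spike-in control among root arrays, 11 against a median of 6.48. The part of these differences in the results was not tested. Counts of calls and many lost calls of named genes in Tsu roots are also given without single arrays or with the index in the model. Overlaps with Kas roots or shoots, changes at 24 h, and differences of single genes between ecotypes or tissues are given in the main setting only. The comparison of the calls with ecotype differences in shoots is too.

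Of 22746 probe sets, 368 passed at an adjusted p below 0.05 by limma, or 1.62%. Of these, 224 (0.985%) were higher and 144 (0.633%) lower after 48 h without iron, and 117 of the rises and 79 of the falls were at least 2-fold. With each array centred on its own median, the split was 168 higher and 227 lower. Of the 368, 190 named 1 gene, 113 of them higher and 77 lower. The groups did not overlap at 343 of the 368, against 17.2% of all probe sets. The count fell to 55 without the 48 h replicate 1. With the ecotype index in the model 130 passed. A fit on the 6 arrays alone called 15, all higher.

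**Figure D1:**
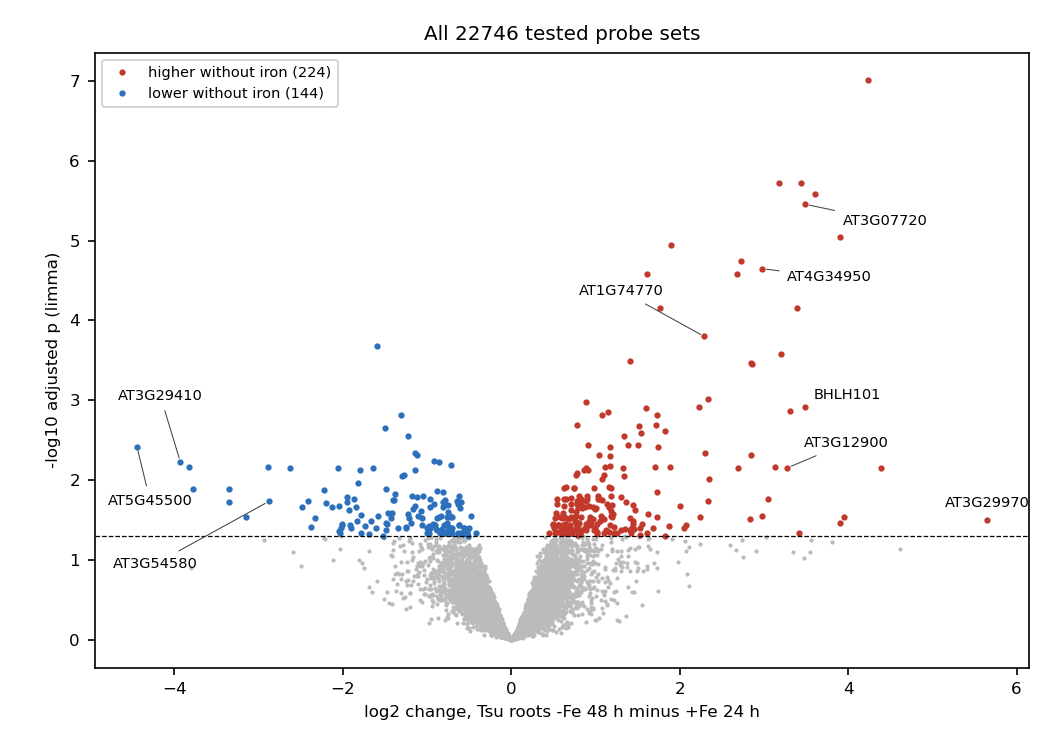
Each point is a probe set; the x axis gives the log2 change in Tsu roots, 48 h without iron minus 24 h with iron, and the y axis minus the log10 of the adjusted p from limma, with a dashed line at 0.05. The 224 higher probe sets are red and the 144 lower are blue; AT3G29970 reached a change of 5.64 and AT5G45500 one of -4.44.

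Among regulators of the iron response, 5 of 10 measured genes rose after 48 h without iron. Of 18 genes in the list, 10 were measured on 11 probe sets, and 6 of these probe sets, for 5 genes, passed as higher and 0 as lower, against 0.985% of all probe sets called higher. This list and those below were chosen with earlier results of these data known. The share over all probe sets is thus given for scale and tests no list. The median change over the 11 was 0.77 and over all probe sets -0.0032. BHLH101, a subgroup Ib bHLH factor, read 6.48, 4.65 and 7.77 without iron and 2.80, 3.08 and 2.55 with iron. Every array without iron lay above every array with iron, with replicate 2 the lowest of the 3. The change was 3.49 (SE 0.48, adjusted p = 0.00122, limma). At 24 h without iron BHLH101 read 3.12, 3.16 and 3.08, close to the arrays with iron. Other genes were already higher at 24 h, against the same arrays with iron. Of the 11 probe sets 3 were called higher then, for AT1G47400 (change 1.80) and AT1G74770 (1.44 and 1.24), and 0 lower. Of the 15 largest rises 7 were called higher at 24 h, among them AT3G58060 (1.90) and AT5G05250 (1.74), where 4.92% of all probe sets were.

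AT1G47400, entered in the list as the IRON MAN peptide gene IMA1, read 7.72, 6.67 and 7.89 without iron and 3.74, 4.62 and 5.39 with iron. The groups were 1.28 apart at their nearest arrays, and the change was 2.84 (SE 0.46, adjusted p = 0.00486). AT1G74770, entered as the BTS-like E3 ligase BTSL1, was measured by 2 probe sets. The first read 7.11, 5.90 and 6.78 without iron and 3.91, 4.51 and 4.50 with iron, a change of 2.29 (SE 0.26, adjusted p = 0.000159). The second, brighter one rose by 1.88 (adjusted p = 0.00687). Both probe sets thus gave the same direction without overlap.

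Smaller rises were seen in AT1G18910, entered as the related ligase BTSL2, at 8.21, 7.88 and 8.20 without iron and 7.42, 7.02 and 7.56 with iron. Its change was 0.77 (SE 0.13, adjusted p = 0.00857). PYE, the bHLH factor POPEYE, which represses iron distribution genes, read 5.92, 5.44 and 5.86 without iron and 4.67, 5.17 and 4.70 with iron, a change of 0.89 (adjusted p = 0.0352). Neither gene's groups overlapped, although PYE replicate 2 lay nearest in both groups. The upstream subgroup IVb and IVc bHLH factors ILR3, bHLH34, bHLH104, bHLH115 and bHLH121 had changes of -0.06 to 0.16 and did not pass. Leaving out the 48 h replicate 1 ended the calls of AT1G18910 (adjusted p = 0.076), PYE (0.212) and the second AT1G74770 probe set (0.0619). PYE also lost its call without the 48 h replicate 3 (0.0864), without complete-medium replicate 1 (0.0751) or 3 (0.0752), with arrays centred on their medians (0.0712), after quantile normalization (0.0688), and with the ecotype index in the model (0.143). With the arrays of the comparison fitted alone, BHLH101, AT1G47400 and AT1G74770 had adjusted p-values of 0.158, 0.101 and 0.0646.

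**Figure D2:**
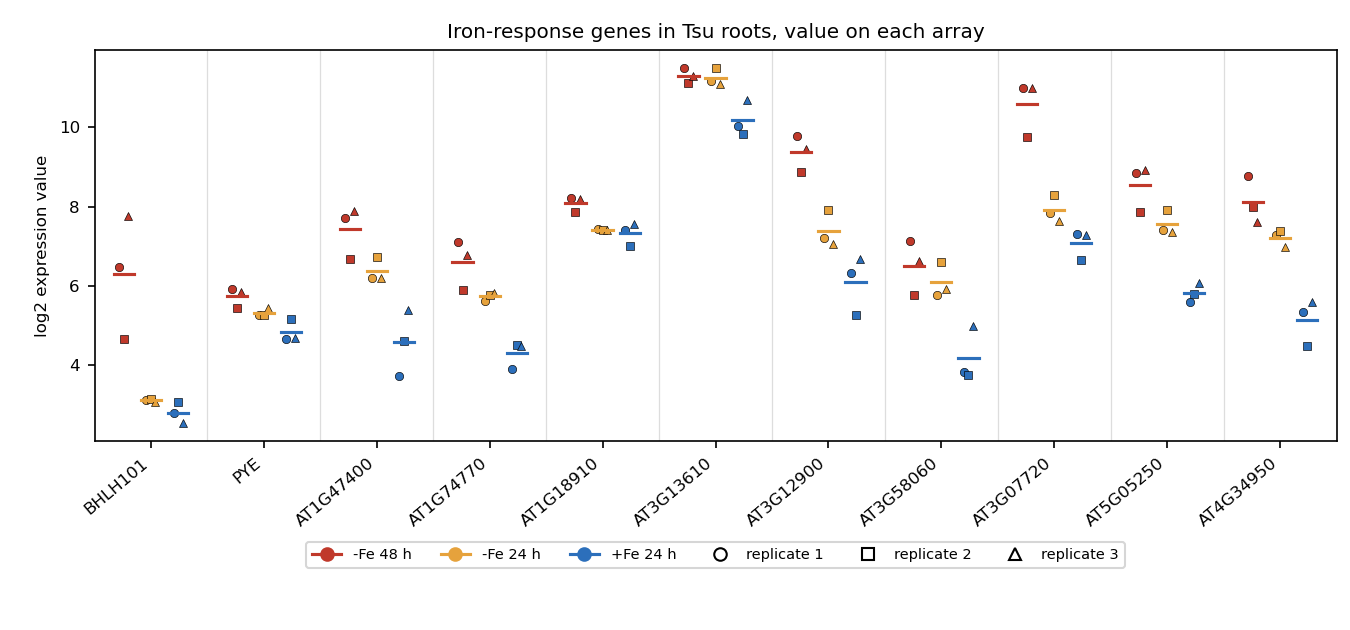
Log2 expression values of 11 genes in Tsu roots, of which AT4G34950 is shown for its rise in these data alone. Points are arrays (circle, square and triangle for replicates 1, 2 and 3) and bars are group means. Each gene has 48 h without iron, 24 h without iron and 24 h with iron from left to right. BHLH101 at 24 h without iron, 3.08 to 3.16, sits near the arrays with iron, while at 48 h it reads 4.65 to 7.77. AT1G47400 at 24 h without iron, 6.21 to 6.73, lies above its arrays with iron, 3.74 to 5.39.

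Of 8 listed genes of coumarin synthesis and secretion 4 were measured, and 2 passed as higher and 0 as lower. Of all probe sets 0.985% were called higher and 0.633% lower, which is no test of a list chosen with earlier results known. The median change was 0.80, against -0.0032 over all probe sets. AT3G12900, entered as S8H, the scopoletin 8-hydroxylase that makes fraxetin, read 9.77, 8.88 and 9.46 without iron and 6.32, 5.26 and 6.69 with iron. The nearest arrays of the groups were 2.19 apart, and the change was 3.28 (SE 0.56, adjusted p = 0.00704). AT3G13610, entered as F6'H1, the enzyme that commits feruloyl-CoA to scopoletin, was among the brighter genes in both groups: 11.49, 11.12 and 11.29 without iron and 10.04, 9.84 and 10.68 with iron. It rose by 1.11 (SE 0.19, adjusted p = 0.00694). BGLU42, a beta-glucosidase of coumarin secretion, differed by 0.49 (adjusted p = 0.178) and AT1G28680, entered as COSY, by -0.20 (adjusted p = 0.584). Without the 48 h replicate 1 neither call was kept, at adjusted p = 0.0619 for AT3G12900 and 0.0632 for AT3G13610.

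Among metal transporters, AT3G58060, entered as MTP8, a vacuolar manganese transporter, read 7.13, 5.77 and 6.63 without iron and 3.85, 3.76 and 4.996 with iron. It rose by 2.31 (SE 0.37, adjusted p = 0.00463) with no overlap. The zinc transporter gene ZIP9 read 5.47, 5.15 and 5.61 against 4.42, 4.03 and 4.17, also without overlap, and its change of 1.20 (SE 0.33) did not pass (adjusted p = 0.0744). MTP11 differed by 0.05 (adjusted p = 0.876). The copper chaperone gene CCS (0.05) and the plantacyanin gene ARPN (0.38), both linked to copper supply, did not pass, nor did the Fe-S cluster assembly genes HCF101, ISU1 and CPNIFS, at -0.06 to 0.08. Iron uptake, iron chelation and transport, iron storage and phosphate starvation had 0 members on a named probe set and are not analysed here.

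Several less characterised genes rose as well. AT3G07720, a Kelch repeat gene often used as an iron-deficiency marker, read 10.99, 9.75 and 10.99 without iron and 7.31, 6.66 and 7.28 with iron. Its change was 3.49 (SE 0.28, adjusted p = 3.51e-06). AT5G05250, a gene of unknown function known to rise in iron-deficient plants, read 8.86, 7.88 and 8.93 against 5.59, 5.81 and 6.07, a change of 2.73 (SE 0.26, adjusted p = 1.82e-05). In both genes, as in BHLH101, the 48 h replicate 2 was the lowest of its group. That it lay above every array with iron was a condition for naming AT3G07720 and AT5G05250.

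AT4G34950, of the major facilitator family, was highest in the 48 h replicate 1: it read 8.77, 7.98 and 7.62 without iron and 5.34, 4.49 and 5.59 with iron. It rose by 2.98 (SE 0.29, adjusted p = 2.25e-05). AT3G61930 read 8.29, 7.46 and 8.26 without iron and 5.22, 3.83 and 5.04 with iron, with a change of 3.31 (SE 0.46, adjusted p = 0.00135). Lack of overlap between the groups was a condition for naming both genes, so it adds no support. AT5G38820, a predicted amino acid transporter, rose by 2.85 (adjusted p = 0.000344), AT3G48450 by 2.86 (adjusted p = 0.000352) and AT5G02580 by 2.34 (adjusted p = 0.000965). Of the 15 largest rises, 11 kept their call without each of the 6 arrays in turn: all but AT3G12900, AT3G29970, AT5G66985 and AT3G10040. In the fit on the 6 arrays alone, 6 kept it, AT3G07720, AT5G05250, AT5G02580, AT3G12900, AT3G61930 and AT4G34950, at adjusted p = 0.0251 to 0.0418.

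Low-oxygen genes were high on 2 of the 3 arrays without iron. When oxygen runs short, plant roots stabilise group VII ERF factors, which switch on fermentation and a core set of genes of partly unknown function. Of 38 listed genes 20 were measured, and 8 passed as higher and 0 as lower, against 0.985% of all probe sets called higher. The low-oxygen list was chosen with earlier results of these data known, so a count above that share adds no support. The median change was 2.15. AT3G29970, the largest rise of any named gene, read 10.87, 10.38 and 4.26 without iron and 2.29, 3.37 and 2.92 with iron, a change of 5.64 (SE 1.25, adjusted p = 0.0314). The 48 h replicates 1 and 2 were far above every other array, and replicate 3 lay 0.89 above the highest array with iron.

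AT3G10040, entered as HRA1, a trihelix factor of the low-oxygen response, read 8.34, 7.95 and 4.36 without iron and 3.82, 4.08 and 3.84 with iron (change 2.97, SE 0.64, adjusted p = 0.028). PDC2, a pyruvate decarboxylase of ethanol fermentation, read 9.80, 9.16 and 7.79 against 7.58, 7.47 and 7.30 (change 1.46, SE 0.34, adjusted p = 0.0409). AT5G66985 read 10.06, 9.64 and 6.64 against 6.18, 5.16 and 5.83 (change 3.05, adjusted p = 0.0172). In each of these genes replicate 3 without iron lay far below replicates 1 and 2 and nearest to the arrays with iron. In AT1G19530 the gap was small: it read 11.31, 10.74 and 10.68 without iron and 9.15, 9.27 and 9.94 with iron (change 1.45, adjusted p = 0.0354). Its call was lost without the 48 h replicate 1 (0.216) and without complete-medium replicate 1 (0.0772) or 2 (0.0962). It was also lost with the ecotype index in the model (0.136), with array weights (0.062) and with the 6 arrays alone (0.142). AT5G44730, AT3G27220 and AT4G24110 also passed, at 2.003, 2.05 and 3.41. The groups overlapped in AT4G24110, which lost its call with the replicate number as a block (adjusted p = 0.0528) and after quantile normalization (0.0506).

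The mean of the 20 genes was 9.08, 8.66 and 5.58 on the arrays without iron at 48 h and 5.32, 5.31 and 5.42 on those with iron. It was 7.90, 7.41 and 7.72 in Tsu roots at 24 h without iron, a comparison that shares the arrays with iron, and 5.56 to 5.73 as group means in Kas roots. The count of 8 rose to 18 without the 48 h replicate 3, with a median of 3.24, and was 0 without replicate 1 and 3 without replicate 2. It was 2, 0 and 3 without complete-medium replicates 1, 2 and 3, and 2 with the ecotype index in the model. Without the 48 h replicate 1, the adjusted p was 0.214 for AT3G29970, 0.192 for AT3G10040, 0.133 for AT5G66985 and 0.234 for PDC2. For AT3G29970 it was 0.0557 to 0.0888 without any 1 of replicate 2 at 48 h and the 3 complete-medium replicates, and for AT3G10040 0.054 to 0.0771. AT5G66985 had 0.0558 without complete-medium replicate 2. With the index in the model AT3G29970 had 0.113 and AT3G10040 0.0554. The 48 h replicate 3 also had a 25S rRNA control reading of 9.25, against 11.55 and 11.12 in replicates 1 and 2 and 10.8, 8.24 and 10.05 with iron. Whether the 3 arrays came from separate cultures is not given in the sources used here, and the part of culture or handling in this split was not tested.

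**Figure D3:**
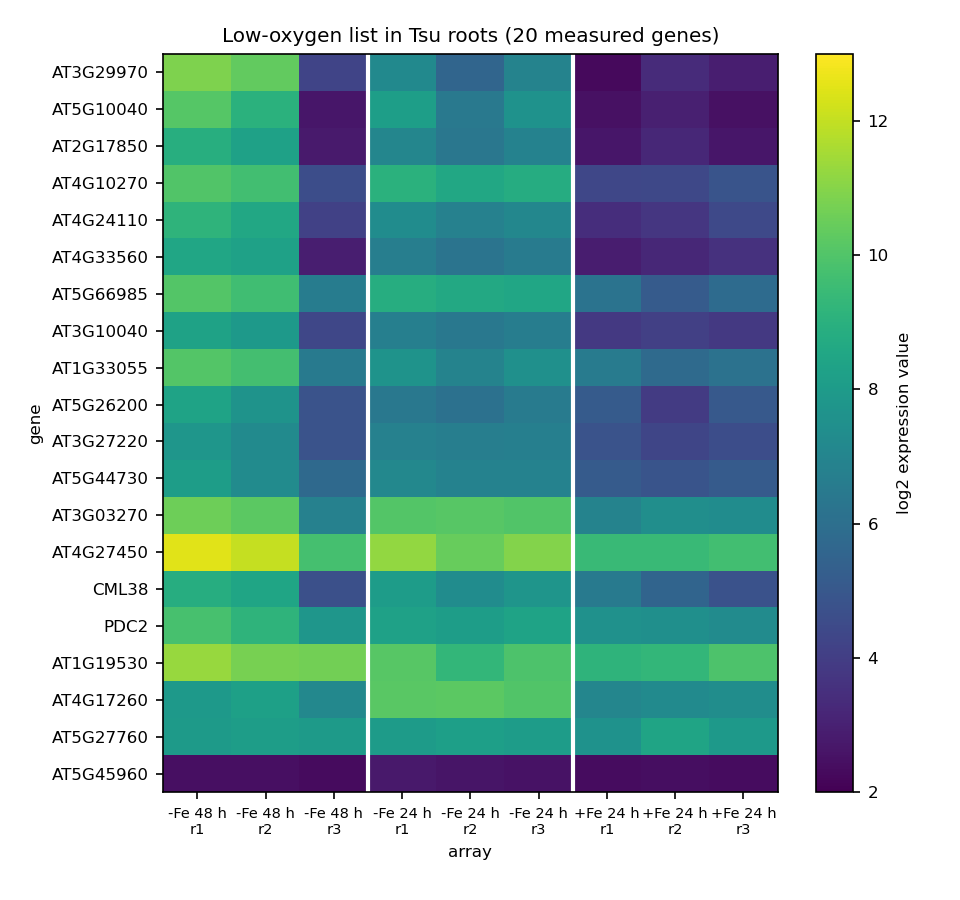
Heat map of log2 expression values of the 20 measured low-oxygen genes (down the page, by change) on 9 Tsu roots arrays (across: 48 h without iron, 24 h without iron, 24 h with iron, replicates r1 to r3). The third 48 h array is dark like the arrays with iron for most genes, with a list mean of 5.58 against 9.08 and 8.66 on the other 48 h arrays.

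Genes of the stress response of mitochondria and of detoxification separated replicate 2 from the other 48 h arrays. Of 13 listed genes 10 were measured and 0 passed in either direction, with a median change of 0.75. AT1G10875 read 2.20, 6.06 and 1.98 without iron and 2.51, 2.15 and 2.31 with iron (adjusted p = 0.471). AT2G04050, of the MATE carrier family, read 2.88, 5.73 and 2.74 against 2.76, 2.57 and 2.72 (adjusted p = 0.281). AT2G21640, a marker of mitochondrial stress, read 3.79, 6.47 and 3.27 against 3.53, 4.15 and 3.62 (adjusted p = 0.5). Replicate 2 was the highest of the 3 arrays in 9 of the 10 genes, all but NDB2, an alternative NADH dehydrogenase. Without replicate 2 the median change was -0.025. At 24 h without iron, against the same arrays with iron, the median was 6.31 and all 10 passed as higher, where 4.92% of all probe sets did. That list, too, was chosen with earlier results of these data known.

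In the 3 largest falls the arrays without iron spread widely. AT5G45500 read 3.17, 6.60 and 3.10 without iron and 9.18, 7.40 and 9.62 with iron. All 3 arrays without iron lay below the arrays with iron, as the naming rule required, but replicate 2 of each group stood near the other group, 0.80 apart. The change was -4.44 (SE 0.70, adjusted p = 0.00385), and this was the only fall of the 15 named that passed without each of the 6 arrays in turn. AT3G29410, of the terpenoid cyclase family, read 2.51, 5.56 and 2.21 against 8.16, 6.02 and 7.90 (change -3.93, SE 0.65, adjusted p = 0.00596).

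AT4G07820, of the family of pathogenesis-related protein 1, read 5.11, 7.61 and 5.41 without iron and 8.96, 8.30 and 9.52 with iron (change -2.89, adjusted p = 0.00681). ZW9 read 3.11, 4.93 and 3.33 against 6.65, 5.81 and 6.15 (change -2.41, adjusted p = 0.0181), and the histone H2B gene HTB11 read 5.27, 5.47 and 4.64 against 6.97, 6.17 and 7.44 (change -1.73, adjusted p = 0.0381). AT3G11370, AT4G08380, AT3G46270, AT3G44070, AT4G02850, AT5G59650 and AT1G49030 fell by 1.78 to 2.22 on the log2 scale. In 111 of the 144 falls the 48 h replicate 2 had the smallest change. Over all 144 falls the change of that replicate had a median of 0.678 of the mean change. Among the 224 rises replicate 2 had the smallest change in 108 and replicate 3 in 107.

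The calls were also set against the difference between the ecotypes in shoots. Of the 144 falls, 43 (29.9%) were higher in Kas than in Tsu shoots, against 8.45% of all tested, and of the 224 rises 52 (23.2%) were lower in Kas shoots, against 13.4%. Among the 15 largest falls 6 were higher in Kas shoots and 0 lower, with AT5G45500 at 5.11, ZW9 at 4.27 and HTB11 at 3.08 (Kas minus Tsu, log2). Some of the others read low in shoots of both ecotypes, where a difference could hardly show. AT3G29410 averaged 2.88 in Kas and 2.47 in Tsu shoots, AT4G08380 2.44 and 2.43, and AT3G46270 2.14 and 2.23. In Kas roots these genes averaged 7.80, 9.20 and 5.55 with iron and 9.06, 10.39 and 4.68 at 48 h without iron. Tsu roots averaged 7.36, 9.38 and 4.52 with iron and 3.43, 7.32 and 2.49 at 48 h. The ecotype index averaged 0.311 ± 0.12 without iron and 0.496 ± 0.135 with iron (SD, n = 3 each), with overlap between the groups, and its part in these falls was not tested. ZW9, HTB11, AT5G45500 and AT3G44070 are themselves among the 117 probe sets of the index, so a model with the index takes up part of their change by construction. With the index in the model, ZW9 had a change of -1.59 (adjusted p = 0.0641) and HTB11 one of -0.98 (adjusted p = 0.107). AT3G46270, AT5G59650 and AT1G49030 no longer passed either, at adjusted p = 0.151, 0.138 and 0.0973.

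Without the 48 h replicate 1, AT3G29410 (0.0569), AT4G07820 (0.0602), ZW9 (0.143) and HTB11 (0.157) had adjusted p-values above the threshold, as did AT4G08380 (0.0665), AT3G11370 (0.102), AT3G44070 (0.126), AT4G02850 (0.148), AT5G59650 (0.172), AT1G49030 (0.179) and AT3G46270 (0.209). ZW9 had 0.0502 without complete-medium replicate 1, and AT4G02850 0.0548 without complete-medium replicate 3. AT3G46270, AT5G59650, AT1G49030 and HTB11 also lost their calls without complete-medium replicate 1 or 3 or without the 48 h replicate 3, at 0.0621 to 0.125. AT3G46270 did so without the 48 h replicate 2 as well (0.0573). With the replicate number as a block, AT3G46270 (0.0528) and AT5G59650 (0.0574) no longer passed, nor did they after quantile normalization (0.0572 and 0.0527).

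**Figure D4:**
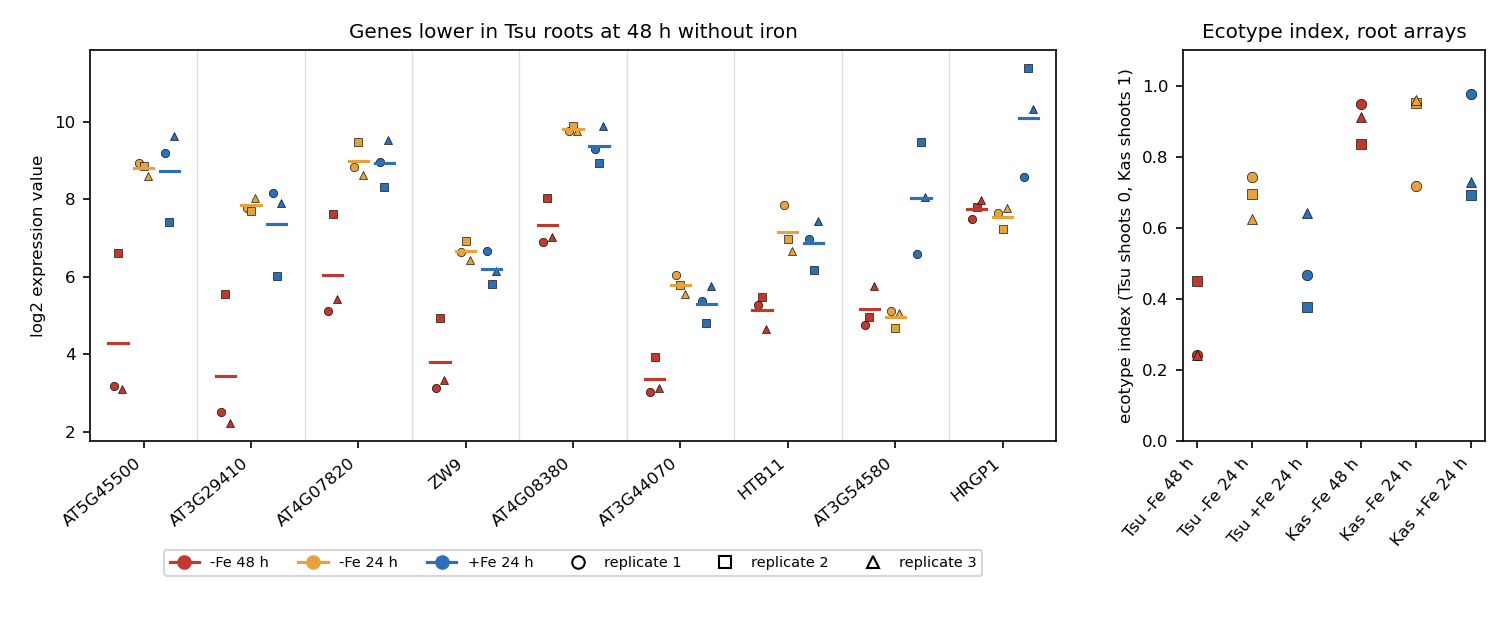
Left, log2 expression values of 9 genes that were lower at 48 h without iron; points are Tsu roots arrays (circle, square and triangle for replicates 1, 2 and 3), bars are group means, and each gene has 48 h without iron, 24 h without iron and 24 h with iron from left to right. Right, the ecotype index of the 18 roots arrays, from 0 at Tsu shoots to 1 at Kas shoots: it was 0.24 to 0.45 in Tsu at 48 h without iron and 0.38 to 0.64 in Tsu with iron.

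Some cell wall genes of the extensin type fell without iron. Extensins are hydroxyproline-rich wall proteins, many of them made in growing root hairs. Of 23 listed genes 11 were measured, and 4 passed as lower and 0 as higher, against 0.633% of all probe sets called lower, with a median change of -1.75. The extensin list was chosen with earlier results of these data known, so that share does not test it. AT3G54580 read 4.76, 4.97 and 5.75 without iron and 6.59, 9.46 and 8.07 with iron (change -2.88, SE 0.57, adjusted p = 0.0186). AT5G06630 fell by 2.49 on the log2 scale, HRGP1 by 2.33 and AT3G28550 by 1.28 (adjusted p = 0.0218, 0.0304 and 0.00872). Complete-medium replicate 2 was the highest array in each of these genes.

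Several of these probe sets, including those of AT5G06630 and HRGP1, belong to the class whose probes can also bind related genes. The list mean was 6.08, 6.45 and 6.91 without iron and 7.16, 9.12 and 8.33 with iron. The count of 4 was 1 without complete-medium replicate 2, 7 without complete-medium replicate 1, 0 without the 48 h replicate 1 and 1 with the ecotype index in the model. AT3G54580 had an adjusted p of 0.0568 without complete-medium replicate 2 and 0.135 without the 48 h replicate 1. AT3G28550 had 0.0824 without the 48 h replicate 1. AT5G06630 had 0.0781 without complete-medium replicate 2 and 0.159 without the 48 h replicate 1, and HRGP1, which also lost its call without the 48 h replicate 2 or complete-medium replicate 3, had 0.0508 to 0.18. The expansins EXPA7 and EXPA18 of root hairs had changes of -0.44 and -0.92 and did not pass. In bulk roots, fewer cells of a type and less RNA per cell cannot be told apart.

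Of other lists, 0 of 3 measured acute stress genes passed. Of the clock genes, COR27 rose by 0.82 (adjusted p = 0.0464) and GI differed by 0.44 (adjusted p = 0.386). COR27 lost its call without the 48 h replicate 1 (0.247) or 3 (0.13), without complete-medium replicate 1 (0.0897) or 2 (0.15), and under 6 other settings, at 0.0522 to 0.313.

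The changes were set against those of Kas roots at 48 h, which share no array with them. The ecotype by iron difference passed at 1805 probe sets, or 7.94%: 1048 (4.61%) had a higher change in Tsu and 757 (3.33%) a lower one. With each array centred on its median, the split was 721 and 1282, and the median difference over all probe sets was -0.18, against -0.04 as deposited. Of the 224 rises in Tsu roots, 23 were also called higher in Kas roots (10.3% of the Tsu rises and 3.57% of the 645 Kas rises), while 25 were called lower there. Of the 144 falls, 4 were also called lower in Kas roots (2.78% of the Tsu falls and 0.451% of the 886 Kas falls), while 19 were called higher there. In Kas roots 2.84% of all probe sets were called higher and 3.9% lower. AT1G47400, AT3G12900, AT3G61930, AT3G07720, AT5G38820, AT3G58060 and AT1G74770 were among the shared rises. AT1G47400 changed by 2.84 in Tsu and 2.63 in Kas, with a difference of 0.21 (SE 0.65, adjusted p = 0.859), and AT3G12900 by 3.28 in Tsu and 3.47 in Kas (difference -0.19, SE 0.79, adjusted p = 0.898).

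Other rises differed between the ecotypes. The named genes were chosen by their change in Tsu roots, which is part of this difference, so the choice itself favours one. BHLH101 changed by 3.49 in Tsu roots and 0.79 in Kas roots (difference 2.70, SE 0.67, adjusted p = 0.0238). AT5G05250 changed by 2.73 in Tsu and 0.30 in Kas (difference 2.43, SE 0.36, adjusted p = 0.00187), and AT4G34950 by 2.98 in Tsu and 0.35 in Kas (difference 2.64, adjusted p = 0.00203). AT5G02580 rose in Tsu and fell in Kas, by 1.20 on the log2 scale there (difference 3.54, SE 0.44, adjusted p = 0.00102). Among the low-oxygen genes 3 of 20 differences passed, where 7.94% of all probe sets did. AT5G66985 changed by 3.05 in Tsu and -0.19 in Kas (difference 3.24, adjusted p = 0.0282), and AT1G19530 by 1.45 in Tsu and -1.80 in Kas (difference 3.25, adjusted p = 0.0016). For the extensin list 9 of 11 differences passed, against the same 7.94%. AT3G54580 changed by -2.88 in Tsu roots and 3.25 in Kas roots (difference -6.13, SE 0.81, adjusted p = 0.00102). The mean of this list was 8.21, 8.38 and 9.16 in Kas roots at 48 h without iron and 6.61, 6.62 and 6.50 with iron. On the same arrays the bioB spike-in read 8.16, 9.12 and 9.81 without iron and 6.60, 5.905 and 6.64 with iron. In Tsu roots it read 6.06, 5.79 and 7.33 at 48 h without iron and 6.33, 11 and 8.06 with iron. The part of this control in the extensin differences was not tested.

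Against Tsu shoots at 48 h, 548 probe sets passed (2.41%), with 239 (1.05%) higher and 309 (1.36%) lower changes in roots. Of the 224 root rises 35 were also higher in shoots (15.6% of the root rises and 6.27% of the 558 shoot rises), and 0 were lower there. Of the 144 root falls 1 was also lower in shoots, while 6 (4.17%) were called higher there. In Tsu shoots 2.45% of all probe sets were called higher and 1.89% lower. AT1G47400 changed by 2.84 in roots and 2.34 in shoots, and AT5G05250 by 2.73 in roots and 2.15 in shoots. The differences were 0.50 (adjusted p = 0.722) and 0.58 (adjusted p = 0.488). BHLH101 rose in shoots as well, by 1.90 (difference 1.59, adjusted p = 0.215). AT3G07720 changed by 3.49 in roots and 0.24 in shoots (difference 3.25, adjusted p = 1.66e-07), and AT3G12900 by 3.28 in roots and -0.16 in shoots (difference 3.44, adjusted p = 0.00224). Of the 15 largest rises 12 differed between the tissues, all but BHLH101, AT1G47400 and AT5G05250. These 15 were chosen by their change in Tsu roots, which is part of the difference. The choice itself thus favours a difference, and the 12 are no independent support for one.

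In all, 4 probe sets were called higher in Tsu roots, Kas roots and Tsu shoots at 48 h. They were AT1G47400, UGT72E1, a glycosyltransferase of phenylpropanoids, and 2 probe sets unnamed here. UGT72E1 read 9.89, 8.99 and 9.86 without iron and 7.63, 7.61 and 8.27 with iron in Tsu roots, a change of 1.74 (SE 0.27, adjusted p = 0.00385). Its changes in Kas roots and in Tsu shoots were 1.92 and 0.59. UGT72E1 is given for this overlap, chosen after its values were seen.

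**Figure D5:**
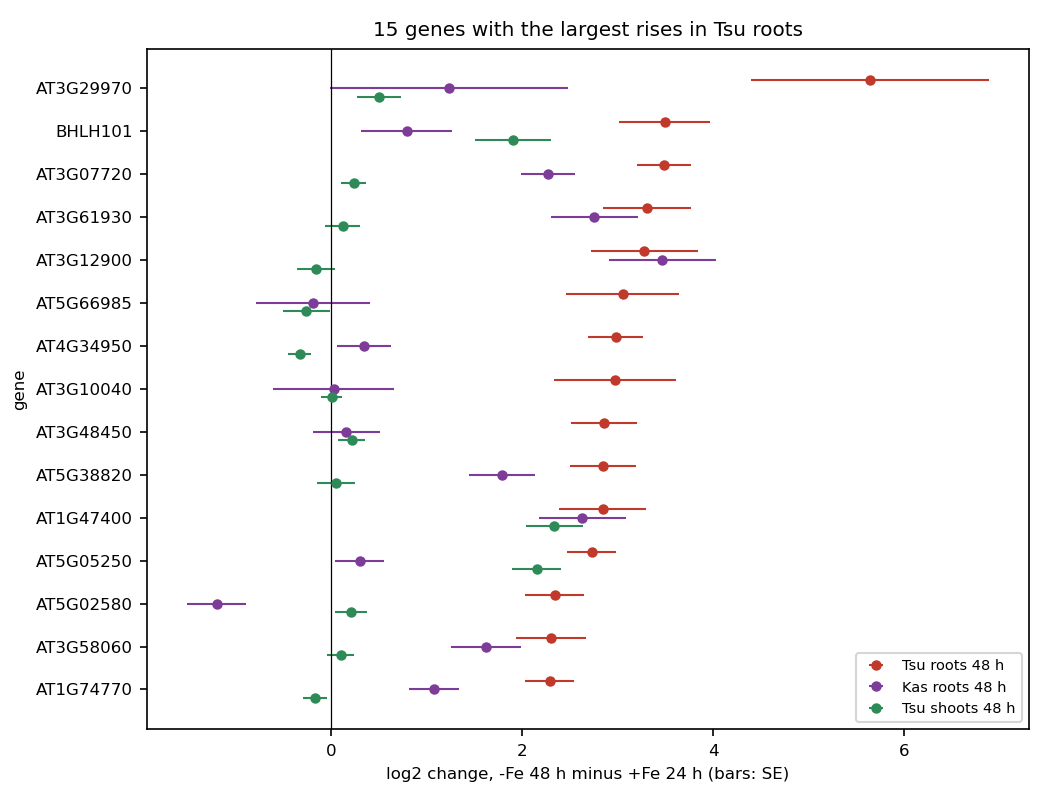
Log2 changes, 48 h without iron minus 24 h with iron, of the 15 genes with the largest rises in Tsu roots (down the page), in Tsu roots (red), Kas roots (purple) and Tsu shoots (green); bars are SEs from limma. AT1G47400 lies at 2.84, 2.63 and 2.34 in these comparisons, whereas AT4G34950 lies at 2.98, 0.35 and -0.33.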

How the data were processed

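The deposited values were log2 expression values, 1 per probe set, from a 1-colour Affymetrix array hybridised with biotin-labelled RNA, per the labels. How the authors corrected, summarised and normalized them is not given in the sources used here. The protocol describes extraction from rosettes, although titles give roots or shoots. Of 22810 probe sets, 64 controls were left out. Gene names came from the array's annotation (13513 probe sets with 1 gene, 503 with several, 8730 unnamed here), updated to RefSeq TAIR10.1 names.

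Changes were tested with limma 3.58.1 in R 4.3.3 (lmFit, eBayes, two-sided) over the 18 root arrays with 1 mean per group, and over 36 arrays for tissue by iron, with Benjamini-Hochberg adjustment over 22746 probe sets. Named genes are the 15 largest rises and falls among calls with 1 gene and no overlap, 5 per direction for interactions, and members of 16 lists (196 genes, 70 on a named probe set). Members and lists were chosen with earlier results of these data known. The ecotype index is the median, over probe sets at least 3 apart between Kas and Tsu shoots, of the position between both means. The 8 photosystem probe sets were chosen after the data were seen. Symbols written as entered come from the lists, not from the annotation.

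The labels do not say whether replicate arrays were separate cultures; p-values then reflect only their spread, which could be technical. The number of arrays limits the precision. Same-numbered arrays of both groups did not deviate together (correlations -0.059, -0.027 and -0.0036). On simulated data for this comparison, 79% of 100 probe sets changed by 1 (log2) and 99% of 100 changed by 2 were recovered among 22746, with 10 false calls. The noise there was drawn independently for each probe set and array. Arrays that deviate together over many genes, as in the low-oxygen list, were not simulated, so these rates do not cover them. Alternatives were leaving out each array, other scalings, a filter on dim probe sets, the replicate block, other sets of arrays, array weights, a trended variance and the ecotype index.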

Additional observations from a re-analysis of the deposited data

Results flagged for a closer look

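Changes without iron at 48 h that differed between Tsu and Kas roots, by the limma interaction, are given as the log2 change in Tsu minus that in Kas. PPDK, pyruvate orthophosphate dikinase, differed by 4.50 and the asparaginase gene ASPGB1 by 4.29. AT4G33550 differed by 4.36, AT5G64120, a class III peroxidase, by 4.29 and AT4G27652 by 3.90. In Kas roots these 5 genes had changes of -2.63 to -3.43, and in Tsu roots of 0.61 to 1.73, where AT4G33550 alone passed.

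Differences in the opposite direction were -6.13 for AT3G54580, -5.42 for AT5G06630, -5.41 for AT4G08410, -5.20 for AT3G29410 and -5.06 for AT5G45500. Among the named rises, BHLH101 differed by 2.70, AT5G66985 by 3.24, AT4G34950 by 2.64, AT3G48450 by 2.70, AT5G05250 by 2.43 and AT5G02580 by 3.54. Named rises were chosen by their change in Tsu roots, which is part of the differences from Kas roots and from Tsu shoots.

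Changes that differed between Tsu roots and Tsu shoots are given as roots minus shoots. The low-oxygen genes AT3G29970, AT4G24110, AT5G66985 and AT3G10040 differed by 5.14, 3.48, 3.31 and 2.96. Iron-response genes differed as follows: AT3G12900 by 3.44, AT3G07720 by 3.25, AT3G58060 by 2.21 and AT1G74770 by 2.46. AT4G34950 differed by 3.31, AT3G61930 by 3.19, AT5G38820 by 2.80, AT3G48450 by 2.64 and AT5G02580 by 2.13. Genes that fell in roots gave differences of -4.004 for AT3G29410, -3.89 for AT5G45500, -3.46 for AT5G59680 and -3.21 for AT3G54580. AT4G29200 differed by -3.07, with a change in roots of -2.94 that did not pass (adjusted p = 0.057).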

How the results depend on the processing

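In Tsu roots at 48 h, 368 calls became 15 with the 6 arrays compared alone, 1349 with all 36 arrays in 1 fit, 130 with the ecotype index as a covariate and 140 over the probe sets that did not differ between ecotypes in shoots, where fewer were tested. Leaving out 1 array gave 55 to 461. It gave 55 without the 48 h replicate 1, and 285 without complete-medium replicate 2, of which 117 were higher. Without the 48 h replicates 2 and 3 the splits were 210 higher and 251 lower, and 325 higher and 75 lower. The replicate block gave 363, 1737 and 537 calls in Tsu roots, for ecotype by iron and for tissue by iron, against 368, 1805 and 548; same-numbered arrays share only a number. Quantile normalization gave 194 higher and 185 lower in Tsu roots, and 319 of its calls were shared with the 368. Ecotype by iron gave 1006 with only the arrays compared, 3656 with all 36 arrays, 1018 with the index and 757 to 2394 without 1 array, lowest without Kas complete-medium replicate 3. It gave 767 without Tsu replicate 1 at 48 h and 993 without Kas replicate 3 at 48 h. Tissue by iron gave 66 with only the arrays compared and 213 to 1009 without 1 array, lowest without the 48 h roots replicate 1 and highest without the 48 h shoots replicate 3. It gave 362 and 279 without complete-medium shoots replicates 2 and 3, and 279 and 220 without the 48 h shoots replicates 1 and 2. The cause of these moves was not tested. No value of a named gene changed sign with its call kept: of 540 values without 1 array, 79 lost the call and 15 gained it, and of 820 under other settings 65 and 30 did. The promoter motif description was not run. Depth is limited by 3 arrays a group and by the lack of detection calls.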
